A study of Mus musculus with 16 samples.

Results

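Complex I, the NADH:ubiquinone oxidoreductase of the mitochondrial inner membrane, was described here through 33 nuclear genes for its subunits in regulatory T cells (Treg cells) of mice. The members were all genes named by a single symbol in the array's platform annotation that begins with Nduf, then a, b, c, s or v, then a number. They numbered 33 of 22180 genes. Assembly factors (Ndufaf genes) and Ndufab1 lie outside that pattern, and of several probe sets for a gene the brightest was used. The pattern uses names and no measured values. It takes in Ndufa4, whose protein is now counted with cytochrome c oxidase, and its relative Ndufa4l2, which is known as a gene induced by low oxygen.

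The 16 arrays fell into 4 groups of 4, all of Treg cells sorted as CD4+Foxp3-YFP+ from spleen and peripheral lymph nodes of C57BL/6 mice with 4 h of stimulation after the sort, by anti-CD3 and anti-CD28 bound to the plate. The genotypes were Atg7+/- (Atg7+/flFoxp3-Cre) and Atg7-/- (Atg7fl/flFoxp3-Cre), so every group carried the Foxp3-Cre allele, which drives deletion in Foxp3-expressing cells, and at least 1 floxed copy of Atg7. Atg7 encodes an enzyme that autophagy requires. Each genotype was untreated or had been given rapamycin, an inhibitor of the kinase mTORC1, at 4 mg per kg intraperitoneally each day for 5 days. No group of wild-type Atg7 was used here, and the labels leave unsaid whether each replicate is a separate mouse. The p-values therefore cover no more than the spread among these samples, part of which may be technical.

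Complex I takes electrons from NADH, passes them along a chain of iron-sulfur clusters to ubiquinone, and pumps protons across the inner membrane. Its matrix arm holds the N module, which oxidizes NADH, and the Q module, which reduces ubiquinone, and its membrane arm holds a proximal and a distal proton-pumping part. Core subunits carry out the reaction and are shared with bacteria, while accessory subunits surround them. Treg cells are known for their reliance on mitochondrial respiration, and mTORC1, the target of rapamycin, is known to control mitochondrial genes in other cells.

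Promoters of 4 members are shown as examples. Ndufa8 was called between untreated genotypes, Ndufb3 in 3 comparisons, and Ndufb11 had the largest rapamycin difference. Ndufs7 is a core subunit whose call, for rapamycin in Atg7-/- cells, was the weakest of 12 there. RefSeq's mouse table (GRCm38.p6) gave a window from 250 bases before to 50 bases after the annotated start for 29 of the 33 members. Capitals mark letters of 2 searched motifs, NRF1 (CGCANGCG) and YY1 (AAGATGGCG), on either strand.
Ndufa8: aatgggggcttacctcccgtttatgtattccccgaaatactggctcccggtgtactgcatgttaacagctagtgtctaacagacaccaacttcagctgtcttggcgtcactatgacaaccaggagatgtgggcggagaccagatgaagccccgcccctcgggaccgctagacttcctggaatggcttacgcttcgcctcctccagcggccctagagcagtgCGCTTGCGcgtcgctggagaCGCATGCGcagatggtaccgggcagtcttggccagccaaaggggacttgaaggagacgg
Ndufs7: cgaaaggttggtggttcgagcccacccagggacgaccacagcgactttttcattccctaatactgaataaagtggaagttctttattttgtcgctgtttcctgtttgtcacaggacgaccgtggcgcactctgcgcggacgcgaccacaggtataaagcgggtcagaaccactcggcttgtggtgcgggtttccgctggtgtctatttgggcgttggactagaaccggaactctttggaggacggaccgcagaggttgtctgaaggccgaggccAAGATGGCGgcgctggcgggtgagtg
Ndufb3: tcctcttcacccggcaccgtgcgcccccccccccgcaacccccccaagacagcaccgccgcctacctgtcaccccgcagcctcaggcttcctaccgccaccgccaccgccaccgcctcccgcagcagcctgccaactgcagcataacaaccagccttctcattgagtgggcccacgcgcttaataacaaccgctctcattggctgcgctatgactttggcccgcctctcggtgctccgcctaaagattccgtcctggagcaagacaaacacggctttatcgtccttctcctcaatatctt
Ndufb11: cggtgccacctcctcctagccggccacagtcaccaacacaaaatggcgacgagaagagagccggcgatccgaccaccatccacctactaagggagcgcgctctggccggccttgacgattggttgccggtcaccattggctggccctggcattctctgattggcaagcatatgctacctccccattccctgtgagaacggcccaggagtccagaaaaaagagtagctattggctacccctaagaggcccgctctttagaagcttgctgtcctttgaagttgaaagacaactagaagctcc
The windows lie at chr2:36049289-36049588 (minus strand) for Ndufa8, chr10:80249199-80249498 (plus strand) for Ndufs7, chr1:58586147-58586446 (plus strand) for Ndufb3 and chrX:20617570-20617869 (minus strand) for Ndufb11. In Ndufa8 the NRF1 letters begin at bases -29 and -9 from the start, and in Ndufs7 the YY1 letters begin at base 24. Neither Ndufb3 nor Ndufb11 held the letters of any of the 5 motifs searched in this window. Nor did Ndufv1 and Ndufv2, the other core subunits called.

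Over the members with a window, 8 of 29 (27.6%) held the NRF1 letters, against 9.22% of 27025 genes with windows of the same length. YY1 letters stood in 4 (13.8%, against 1.64%), ETS letters (CCGGAAG) in 4 (13.8%, against 9.93%) and CRE letters (TGACGTCA) in 2 (6.90%, against 2.03%). ERR letters (TCAAGGTCA) stood in 0, against 0.466%. All 5 motifs were searched on both strands. At least 1 of them stood in 17 of the 29, and in 4 of the 13 members with a window that were called in any comparison. A match in letters is a description of the window and not a measured binding site.

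As facts of the whole series, array medians ran from 4.41 to 4.63 and correlations between arrays within a group from 0.980 to 0.994. The 8 Treg markers averaged 10.26 to 10.67 per array on the log2 scale, and the lists for B, CD8 T and NK, macrophage, dendritic, neutrophil and erythroid cells averaged 3.81 to 5.25. No value on these arrays is 0, since background signal remains. Atg7 averaged 6.66 ± 0.0598 (SD, n = 4) in untreated Atg7+/-, 6.38 ± 0.240 in untreated Atg7-/-, 6.78 ± 0.0781 in rapamycin Atg7+/- and 6.48 ± 0.314 in rapamycin Atg7-/- cells. Whether its probe set lies in the deleted part is not given in the sources used here, so this does not check the genotype. Rapamycin Atg7-/- replicate 3 stood apart, with the lowest array median (4.41) and the highest mean over the 33 members, and the main counts and medians that include it are also given without it.

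All 33 members passed the filter on dim genes (highest group mean above 3.55 on the log2 scale), and 16 lay above the 90th percentile of the genes tested. The shares and medians of all genes given below cover all 16760 genes tested and are not matched for signal level. Whether other genes of like signal moved in the same way was not tested. Ndufa4 had the highest mean signal over the 16 arrays (10.79), followed by Ndufa12 (10.59) and Ndufa1 (10.01). Ndufa4l2 (4.09) and Ndufs5 (4.56), an accessory subunit facing the intermembrane space, had the lowest. Probe sets differ in how they bind, so this order describes signals and not amounts of RNA. The SD within a group, pooled over the 4 groups, ran from 0.0728 to 0.214 over the members, with a median of 0.130.

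Averaged over the 33 members, the log2 level was 8.24 ± 0.0728 (SD, n = 4) in untreated Atg7+/-, 8.34 ± 0.106 in rapamycin Atg7+/-, 8.39 ± 0.0402 in untreated Atg7-/- and 8.62 ± 0.111 in rapamycin Atg7-/- cells. The 4 arrays of the rapamycin Atg7-/- group, at 8.53 to 8.78, lay above all other arrays. Untreated Atg7+/- arrays, at 8.13 to 8.30, lay below the untreated Atg7-/- arrays, at 8.37 to 8.45. Rapamycin Atg7+/- arrays, at 8.21 to 8.44, overlapped with both. Without its replicate 3 the mean of the rapamycin Atg7-/- group was 8.57 ± 0.0472 (SD, n = 3). Rapamycin Atg7-/- cells had the highest group mean for 27 members (25 without that array) and untreated Atg7-/- cells for the other 6. Over all genes tested these groups were highest for 22.8% and 34.6%. Untreated Atg7+/- cells were lowest for 23 members, against 20.3% of all genes. In bulk RNA a change in the share of cells that express a gene and a change in RNA per cell cannot be told apart.

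**Figure D1:**
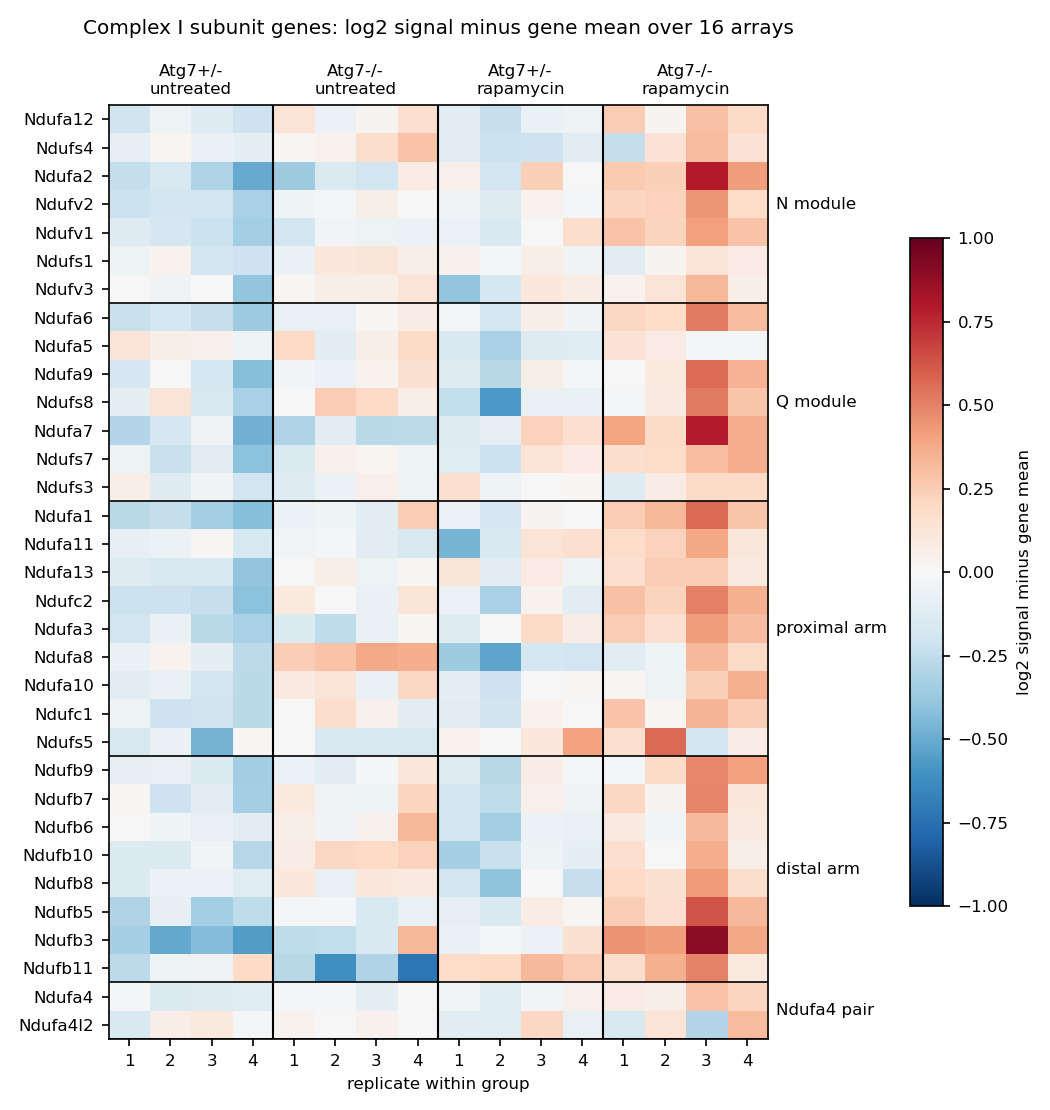
Each row is 1 complex I gene, grouped by the structural part of its protein, and each column is 1 of the 16 arrays. Colour is the array's log2 signal minus the gene's mean over all 16 arrays. The 4 rapamycin Atg7-/- arrays are above the gene mean for most members, and Ndufb11 is low in the 4 untreated Atg7-/- arrays.

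Between untreated genotypes the differences were small and mostly upward in Atg7-/- cells. Of the 33 members 31 had a higher mean in Atg7-/- cells, against 55.5% of all genes, with a median log2 difference of 0.18 (all genes 0.022). Only Ndufa8 passed the test (limma adjusted p under 0.05), higher in Atg7-/- cells, so 1 of 33 was called against 3.14% of all genes (1.75% higher and 1.39% lower). The 4 arrays of each group did not overlap for 11 members higher in Atg7-/- cells and 1 lower, against 8.17% and 5.97% of all genes. At an unadjusted p under 0.05 the count was 12, against 17.4% of all genes.

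Ndufa8 encodes an accessory subunit on the intermembrane-space side of the membrane arm. The log2 signal of Ndufa8 was 9.39, 9.49, 9.37 and 9.19 in the untreated Atg7+/- arrays, 9.7, 9.74, 9.83 and 9.82 in the untreated Atg7-/- arrays, 9.1, 8.93, 9.28 and 9.26 in the rapamycin Atg7+/- arrays and 9.34, 9.42, 9.78 and 9.64 in the rapamycin Atg7-/- arrays. Its lowest untreated Atg7-/- array lay above every untreated Atg7+/- array, and both rapamycin groups lay lower than their untreated counterparts on average. The log2 difference between untreated genotypes was 0.41 (SE 0.107, a 1.33-fold difference, limma adjusted p = 0.0430). The dimmer of its 2 probe sets gave means of 8.34 and 8.67 in the same groups. The call was lost without any 1 of the 8 untreated arrays, without rapamycin Atg7+/- replicate 1 or 4 and without rapamycin Atg7-/- replicate 4, and over all alternatives the adjusted p ran from 0.0148 to 0.125. Counts of called members were 2 without rapamycin Atg7-/- replicate 1 and 4 without replicate 3 of that group. Over all genes 694 were called without that replicate 3, against 527 with all arrays.

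Ndufb11, an X-linked accessory subunit of the distal membrane arm, had the other largest difference, in the opposite direction. Ndufb11 signals (log2) stood at 6.26, 6.46, 6.48 and 6.72 in untreated Atg7+/-, 6.24, 5.9, 6.21 and 5.79 in untreated Atg7-/-, 6.7, 6.71, 6.84 and 6.77 in rapamycin Atg7+/- and 6.69, 6.87, 7.02 and 6.61 in rapamycin Atg7-/- cells. All 4 untreated Atg7-/- arrays were the lowest of the 16, and their difference of -0.44 (SE 0.120) from untreated Atg7+/- cells missed the threshold (limma adjusted p = 0.0521). Over the alternatives that adjusted p ran from 0.0363 to 0.152.

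Ndufb10 encodes another accessory subunit of the distal membrane arm. In untreated Atg7+/- cells Ndufb10 gave log2 values of 8.29, 8.28, 8.4 and 8.14, in untreated Atg7-/- cells 8.51, 8.63, 8.63 and 8.66, in rapamycin Atg7+/- cells 8.1, 8.21, 8.38 and 8.34, and in rapamycin Atg7-/- cells 8.6, 8.42, 8.79 and 8.49. The untreated groups did not overlap, and the difference of 0.33 (SE 0.0947) also missed the threshold (limma adjusted p = 0.0666). Every array of both Atg7-/- groups lay above every Atg7+/- array.

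Markers of cycling cells moved in the same comparison. Of 19 cell cycle genes tested, 8 were called higher in untreated Atg7-/- cells, with a median log2 difference of 0.40. Their mean level was 5.71 ± 0.0570 (SD, n = 4) in untreated Atg7+/- and 6.31 ± 0.0816 in untreated Atg7-/- cells. The summed log2 signal of the 8 neutrophil markers was 31.7 to 35.1 in untreated Atg7+/- and 35.1 to 36.1 in untreated Atg7-/- arrays, with none called of 7 tested. Of the 8 Treg markers 1 was called lower, Foxp3, with means of 11.26 in untreated Atg7+/- and 10.86 in untreated Atg7-/- cells (limma adjusted p = 0.0355), and for 3 markers all Atg7-/- arrays lay lower. Of 7 dendritic markers 1 was called lower, and their summed signal was 35.0 to 36.1 in untreated Atg7+/- and 36.1 to 36.7 in untreated Atg7-/- arrays. Of the B, CD8 T and NK, macrophage and erythroid markers none was called. The part of any of these in the complex I values was not tested.

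In Atg7+/- cells, rapamycin left most members without a called difference. The median log2 difference was 0.11 (all genes -0.035), and 24 of 33 members were higher after rapamycin, against 43.7% of all genes. Ndufb3 alone was called, upward, that is 1 of 33 against 14.1% of all genes (6.03% upward and 8.11% downward). The arrays of the groups did not overlap for 5 members higher and 2 lower, against 9.64% and 13.1% of all genes. At an unadjusted p under 0.05 the count was 13, against 29% of all genes. Of 19 cell cycle genes 1 was called lower, with a median of -0.053. Of the 8 Treg markers 1 was called higher and 2 lower. Of 7 dendritic markers tested 1 was called higher and 1 lower. Of 7 macrophage markers tested 1 was called higher, and of 6 B markers 2 were called lower. None of the CD8 T and NK, neutrophil and erythroid markers was called. The part of any list in the complex I values was not tested.

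Ndufb3 encodes a small accessory subunit of the distal membrane arm. For Ndufb3 the log2 levels were 6.63, 6.45, 6.53 and 6.4 (untreated Atg7+/-), 6.7, 6.72, 6.81 and 7.29 (untreated Atg7-/-), 6.9, 6.94, 6.9 and 7.11 (rapamycin Atg7+/-) and 7.41, 7.38, 7.86 and 7.35 (rapamycin Atg7-/-). The untreated Atg7+/- arrays were low, the rapamycin Atg7+/- arrays lay wholly above them, and all 4 rapamycin Atg7-/- arrays lay above every other array. In Atg7+/- cells it rose with rapamycin by 0.46 (SE 0.131, 1.38-fold, limma adjusted p = 0.0259). The call was lost without untreated Atg7+/- replicate 2, 3 or 4 or rapamycin Atg7+/- replicate 2 or 4, which left 0 members called, and over all alternatives its adjusted p ran from 0.00375 to 0.0733. The count was 2 without untreated Atg7-/- replicate 4 or rapamycin Atg7-/- replicate 3. Over all genes 1559 were called without rapamycin Atg7+/- replicate 2 and 2781 without rapamycin Atg7-/- replicate 3, against 2370 with all arrays.

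The members next in rank were not called. Ndufa1 differed by 0.27 (limma adjusted p = 0.0709) and Ndufa3, a small subunit of the proximal membrane arm, by 0.25 (limma adjusted p = 0.0858). Ndufa5, an accessory subunit of the Q module, differed by -0.23 (limma adjusted p = 0.0875), and its rapamycin Atg7+/- arrays, at 8.97 to 9.17, all lay below the untreated ones, at 9.25 to 9.42.

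**Figure D2:**
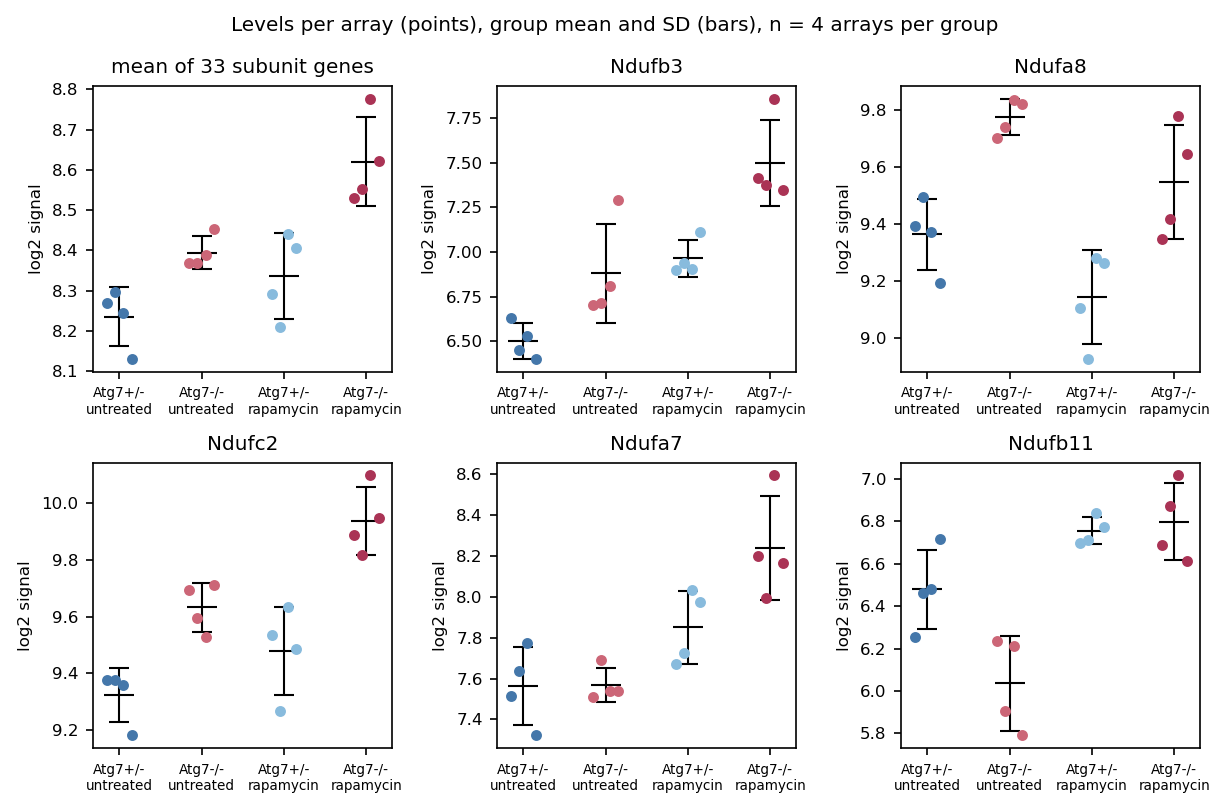
Log2 signal (vertical axis) of selected complex I genes in the 4 groups, 1 point per array, with the group mean and SD (n = 4). Ndufb3 and Ndufc2 are highest in the rapamycin Atg7-/- group, while Ndufa8 is highest in the untreated Atg7-/- group.

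In Atg7-/- cells, 12 members were called higher with rapamycin and none lower (limma adjusted p under 0.05). The 12 called of 33 stand beside 20% of all genes called and 8.83% called upward. They belonged to every part of the complex: Ndufv1, Ndufv2 and Ndufa2 of the N module, Ndufs7, Ndufa6 and Ndufa7 of the Q module, Ndufa1, Ndufa3 and Ndufc2 of the proximal membrane arm, and Ndufb3, Ndufb5 and Ndufb11 of the distal arm. The median log2 difference over the 33 was 0.19 (all genes -0.040), and 27 were higher, against 43.7% of all genes. Arrays did not overlap for 16 members, all higher, against 20.4% of all genes, 8.76% higher. With rapamycin Atg7-/- replicate 3 left out they did not overlap for 17 members higher and 1 lower, against 11.8% of all genes higher. At an unadjusted p under 0.05 the count was 17, against 34.2% of all genes.

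Of the N module, Ndufv1 encodes the core subunit that binds NADH and the flavin. The log2 signal of Ndufv1 was 8.3, 8.26, 8.21 and 8.09 in the untreated Atg7+/- arrays, 8.24, 8.4, 8.38 and 8.37 in the untreated Atg7-/- arrays, 8.37, 8.28, 8.43 and 8.6 in the rapamycin Atg7+/- arrays and 8.71, 8.65, 8.84 and 8.71 in the rapamycin Atg7-/- arrays. The rapamycin Atg7-/- arrays were the highest of all 16, and rapamycin raised Ndufv1 in Atg7-/- cells by 0.38 (SE 0.0850, 1.3-fold, limma adjusted p = 0.00448). Its partner Ndufv2 is a core subunit with an iron-sulfur cluster. Ndufv2 signals (log2) stood at 8.6, 8.63, 8.62 and 8.49 in untreated Atg7+/-, 8.77, 8.79, 8.87 and 8.81 in untreated Atg7-/-, 8.78, 8.69, 8.85 and 8.79 in rapamycin Atg7+/- and 9.02, 9.04, 9.25 and 9.0 in rapamycin Atg7-/- cells. Here the untreated Atg7+/- arrays were the lowest, both middle groups overlapped, and rapamycin Atg7-/- arrays were the highest, with a rise of 0.27 (SE 0.0777, limma adjusted p = 0.0219) in Atg7-/- cells.

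Ndufa2 is an accessory subunit of the N module with a thioredoxin-like fold. In untreated Atg7+/- cells Ndufa2 gave log2 values of 9.04, 9.12, 8.97 and 8.78, in untreated Atg7-/- cells 8.93, 9.14, 9.09 and 9.36, in rapamycin Atg7+/- cells 9.33, 9.09, 9.52 and 9.29, and in rapamycin Atg7-/- cells 9.55, 9.52, 10.07 and 9.7. Its rapamycin Atg7-/- arrays were the highest and lay clear of the untreated Atg7-/- ones, with a rise of 0.58 (SE 0.129, 1.5-fold, limma adjusted p = 0.00443). Ndufs1, the largest core subunit and a carrier of iron-sulfur clusters, gave no call in any comparison. For Ndufs1 the log2 levels were 7.6, 7.69, 7.46 and 7.44 (untreated Atg7+/-), 7.59, 7.76, 7.77 and 7.72 (untreated Atg7-/-), 7.7, 7.63, 7.71 and 7.62 (rapamycin Atg7+/-) and 7.54, 7.68, 7.78 and 7.73 (rapamycin Atg7-/-). Its 4 groups overlapped.

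Of the Q module, Ndufa7 is an accessory subunit. The log2 signal of Ndufa7 was 7.52, 7.64, 7.77 and 7.32 in the untreated Atg7+/- arrays, 7.51, 7.69, 7.54 and 7.54 in the untreated Atg7-/- arrays, 7.67, 7.73, 8.03 and 7.97 in the rapamycin Atg7+/- arrays and 8.2, 7.99, 8.59 and 8.17 in the rapamycin Atg7-/- arrays. The rapamycin Atg7-/- arrays lay above both untreated groups and overlapped with rapamycin Atg7+/-, and the rise in Atg7-/- cells was 0.67 (SE 0.126, 1.59-fold, limma adjusted p = 0.00138). Ndufa6 is an LYR-motif accessory subunit that binds the mitochondrial acyl carrier protein. Ndufa6 signals (log2) stood at 9.35, 9.4, 9.34 and 9.21 in untreated Atg7+/-, 9.5, 9.49, 9.58 and 9.64 in untreated Atg7-/-, 9.55, 9.4, 9.63 and 9.53 in rapamycin Atg7+/- and 9.78, 9.76, 10.09 and 9.89 in rapamycin Atg7-/- cells. The rapamycin Atg7-/- arrays were the highest of all, with a rise of 0.32 (SE 0.0879, limma adjusted p = 0.0150).

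Ndufs7, Ndufs8 and Ndufs3 are core subunits of the Q module, and the iron-sulfur cluster nearest to ubiquinone lies in Ndufs7. In untreated Atg7+/- cells Ndufs7 gave log2 values of 7.5, 7.33, 7.44 and 7.14, in untreated Atg7-/- cells 7.41, 7.6, 7.58 and 7.51, in rapamycin Atg7+/- cells 7.43, 7.34, 7.69 and 7.63, and in rapamycin Atg7-/- cells 7.73, 7.74, 7.85 and 7.92. Rapamycin raised Ndufs7 in Atg7-/- cells by 0.29 (SE 0.0986), the weakest of the 12 calls (limma adjusted p = 0.0487), and its arrays in rapamycin Atg7+/- cells overlapped with both untreated groups. For Ndufs8 the log2 levels were 8.15, 8.37, 8.08 and 7.92 (untreated Atg7+/-), 8.24, 8.49, 8.44 and 8.3 (untreated Atg7-/-), 8.0, 7.67, 8.18 and 8.18 (rapamycin Atg7+/-) and 8.22, 8.33, 8.76 and 8.52 (rapamycin Atg7-/-). Ndufs8, which carries iron-sulfur clusters next to it in the chain, was not called, and rapamycin Atg7+/- replicate 2 gave the lowest of its 16 values. The log2 signal of Ndufs3 was 7.44, 7.25, 7.34 and 7.19 in the untreated Atg7+/- arrays, 7.25, 7.32, 7.43 and 7.32 in the untreated Atg7-/- arrays, 7.55, 7.32, 7.37 and 7.4 in the rapamycin Atg7+/- arrays and 7.25, 7.45, 7.57 and 7.57 in the rapamycin Atg7-/- arrays. Values of Ndufs3 overlapped between all groups.

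In the membrane arm, Ndufb11 showed the largest rapamycin difference of any member. Its 4 untreated Atg7-/- arrays, at 5.79 to 6.24, lay below the rapamycin Atg7-/- arrays, at 6.61 to 7.02, a rise of 0.76 (SE 0.120, 1.70-fold, limma adjusted p = 0.000362). The rapamycin groups of the 2 genotypes overlapped, and the untreated Atg7-/- values were the low ones. Ndufb3 rose by 0.62 (SE 0.131, 1.54-fold, limma adjusted p = 0.00326), and without rapamycin Atg7-/- replicate 3, its highest array, the call was kept.

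Ndufb5 is an accessory subunit of the distal arm. Ndufb5 signals (log2) stood at 7.17, 7.39, 7.13 and 7.22 in untreated Atg7+/-, 7.46, 7.46, 7.32 and 7.4 in untreated Atg7-/-, 7.39, 7.32, 7.55 and 7.48 in rapamycin Atg7+/- and 7.72, 7.64, 8.1 and 7.8 in rapamycin Atg7-/- cells. All rapamycin Atg7-/- arrays lay above the rest, with a rise of 0.41 (SE 0.0989, limma adjusted p = 0.00791). Ndufa3, of the proximal arm, rose by 0.40 (SE 0.0931, limma adjusted p = 0.00603) from a mean of 9.37 to 9.77. In untreated Atg7+/- cells Ndufa3 gave log2 values of 9.3, 9.42, 9.21 and 9.16, in untreated Atg7-/- cells 9.35, 9.23, 9.41 and 9.5, in rapamycin Atg7+/- cells 9.35, 9.48, 9.68 and 9.56, and in rapamycin Atg7-/- cells 9.74, 9.65, 9.9 and 9.79. Its untreated groups overlapped with each other, and the rapamycin Atg7+/- arrays overlapped with all the other groups.

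Ndufa1 is a small X-linked subunit needed for assembly of the membrane arm. For Ndufa1 the log2 levels were 9.74, 9.77, 9.68 and 9.58 (untreated Atg7+/-), 9.95, 9.96, 9.89 and 10.26 (untreated Atg7-/-), 9.95, 9.84, 10.04 and 10.02 (rapamycin Atg7+/-) and 10.26, 10.35, 10.58 and 10.29 (rapamycin Atg7-/-). Untreated Atg7+/- arrays were the lowest of the 16, and rapamycin raised Ndufa1 in Atg7-/- cells by 0.35 (SE 0.0964, limma adjusted p = 0.0152). Ndufc2 is an accessory subunit of the proximal arm. The log2 signal of Ndufc2 was 9.38, 9.38, 9.36 and 9.18 in the untreated Atg7+/- arrays, 9.69, 9.6, 9.53 and 9.71 in the untreated Atg7-/- arrays, 9.53, 9.27, 9.63 and 9.48 in the rapamycin Atg7+/- arrays and 9.89, 9.82, 10.1 and 9.95 in the rapamycin Atg7-/- arrays. Rapamycin Atg7-/- arrays were all above the rest, and the rise was 0.31 (SE 0.0930, limma adjusted p = 0.0278).

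Ndufb11, Ndufa7, Ndufb3, Ndufa2, Ndufv1, Ndufa3 and Ndufb5 kept their calls in all 25 alternatives. Fitted on the 2 groups alone, 7 members were called. Ndufs7 lost its call in 17 of the alternatives, with an adjusted p of up to 0.126: without any 1 of the untreated Atg7-/- arrays, untreated Atg7+/- replicate 2 or 3, rapamycin Atg7+/- replicate 1 or 4, or rapamycin Atg7-/- replicate 2, 3 or 4, and in other settings. Ndufc2 lost it in 6 (adjusted p up to 0.0770), without untreated Atg7-/- replicate 2 or 3 or rapamycin Atg7-/- replicate 3 or 4 among them. Ndufv2 lost it in 4 (adjusted p up to 0.0821), without untreated Atg7-/- replicate 1 or rapamycin Atg7-/- replicate 3 among them. Without rapamycin Atg7-/- replicate 3 the count was 9 (3419 of all genes, against 3347 with all arrays). There 26 of 33 members were higher, and the median was 0.15. The 19 cell cycle genes moved the other way, with 10 called lower and a median of -0.39, and their part in the complex I values was not tested. The 8 Treg markers averaged 10.58 in untreated and 10.38 in rapamycin Atg7-/- cells, with 3 called lower and 1 higher. Of the other lists 2 dendritic, 1 B and 1 neutrophil marker were called, all lower.

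**Figure D3:**
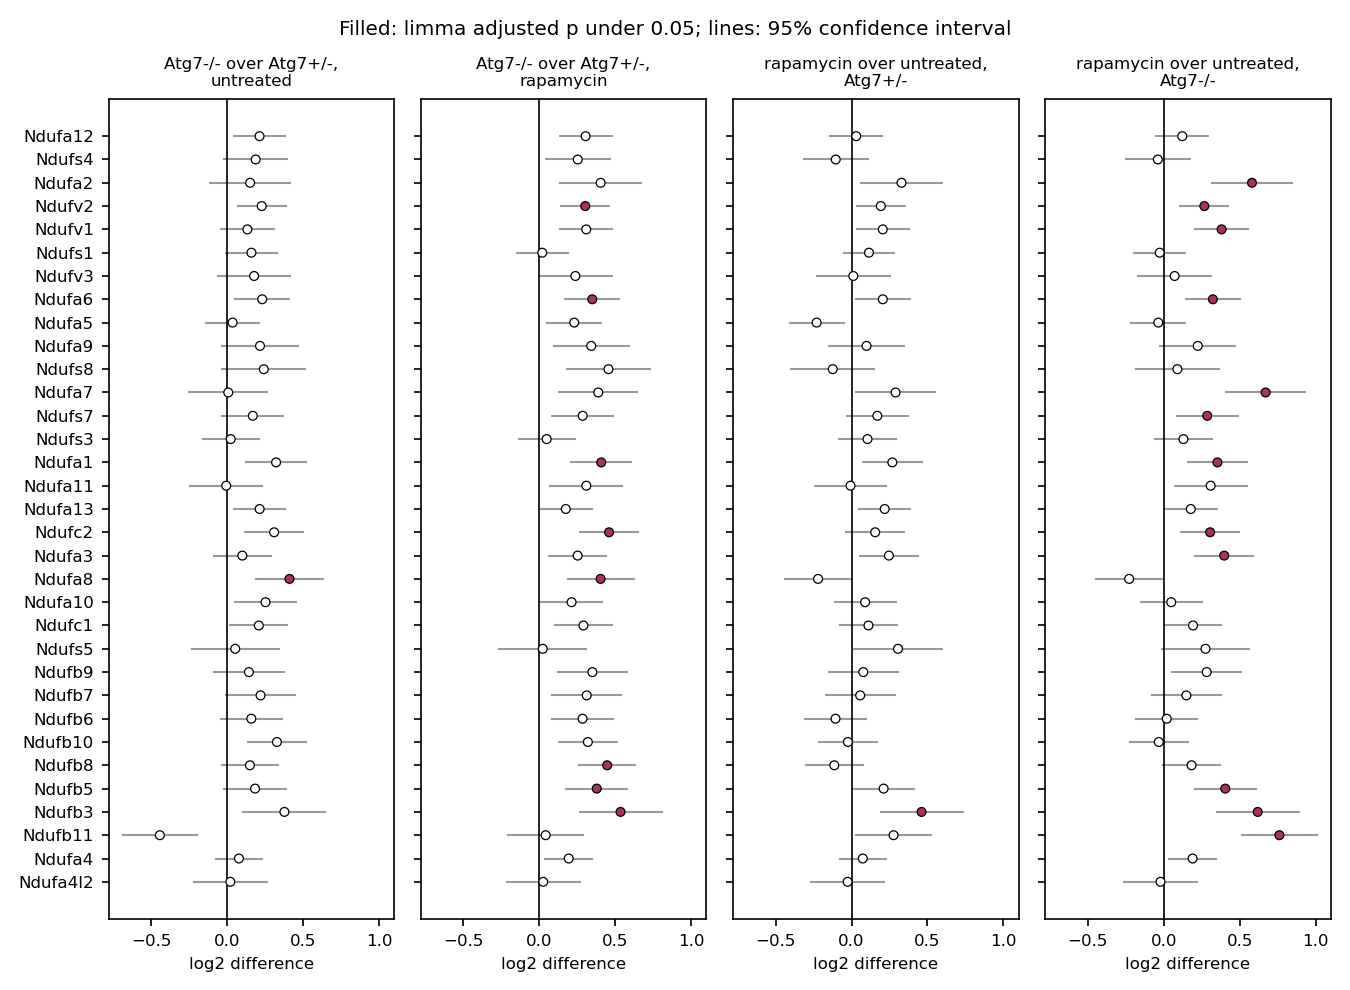
Log2 difference of each complex I gene (horizontal axis) with its 95% confidence interval in the comparisons, with filled points where the limma adjusted p was under 0.05. Points for Atg7-/- over Atg7+/- cells under rapamycin all lie above 0, from 0.019 to 0.53, and filled points are most frequent for rapamycin in Atg7-/- cells.

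Under rapamycin every one of the 33 members had a higher mean in Atg7-/- than in Atg7+/- cells, against 53.6% of all genes. The median log2 difference was 0.30 (all genes 0.017). The test called 8 members, all higher, beside 3.24% of all genes (1.91% higher). They were Ndufc2, Ndufa1 and Ndufa8 of the proximal arm, Ndufb8, Ndufb3 and Ndufb5 of the distal arm, Ndufa6 of the Q module and Ndufv2 of the N module. Arrays did not overlap for 17 members, all higher, against 6.01% of all genes higher and 3.76% lower. The count was also 17 without rapamycin Atg7-/- replicate 3, against 7.45% of all genes higher. At an unadjusted p under 0.05 the count was 26, against 18.3% of all genes. Each comparison shares a group with others, this one the rapamycin Atg7-/- arrays with the rapamycin comparison, so they are not independent.

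Ndufc2 gave the smallest adjusted p, with means of 9.48 in rapamycin Atg7+/- and 9.94 in rapamycin Atg7-/- cells, a difference of 0.46 (SE 0.0930, 1.37-fold, limma adjusted p = 0.0145). Ndufb8 is an accessory subunit of the distal arm. Ndufb8 signals (log2) stood at 7.72, 7.8, 7.8 and 7.74 in untreated Atg7+/-, 7.97, 7.79, 7.96 and 7.95 in untreated Atg7-/-, 7.67, 7.46, 7.85 and 7.63 in rapamycin Atg7+/- and 8.06, 8.01, 8.29 and 8.04 in rapamycin Atg7-/- cells. Its rapamycin Atg7+/- arrays held its 3 lowest values but 1 array overlapped with the untreated groups, and rapamycin Atg7-/- arrays were the highest, a difference of 0.45 (SE 0.0915, 1.36-fold, limma adjusted p = 0.0152).

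The other 6 called members differed by 0.30 to 0.53. Ndufb3 differed by 0.53 (SE 0.131, limma adjusted p = 0.0341), Ndufa1 by 0.41 (SE 0.0964, limma adjusted p = 0.0299), and Ndufa8 by 0.40 (SE 0.107, limma adjusted p = 0.0466). Ndufb5 differed by 0.38 (limma adjusted p = 0.0441), Ndufa6 by 0.35 (limma adjusted p = 0.0382) and Ndufv2 by 0.30 (limma adjusted p = 0.0413). For each of them the highest rapamycin Atg7+/- array lay below the lowest rapamycin Atg7-/- array, and the margin was narrowest for Ndufa8, at 9.28 against 9.34. Just outside the threshold were Ndufv1 (limma adjusted p = 0.0542), Ndufa12 of the N module (0.0551), Ndufs8 (0.0680) and Ndufb10 (0.070).

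These calls depended on the arrays and on the fit, while the direction of the median did not. Fitted on the 2 rapamycin groups alone, 0 members were called, and 20 of all genes. All 8 lost their calls there and without rapamycin Atg7+/- replicate 2, and over all alternatives their adjusted p ran up to 0.178. Ndufc2 and Ndufb8 kept the call in the other 23 alternatives. Rapamycin Atg7+/- replicate 2 was the lowest of its group for 25 members. Without it 0 members were called (95 of all genes, against 543 with all arrays), 31 were still higher and the median was 0.26. Rapamycin Atg7-/- replicate 3 was the highest of its group for 26 members. Without it 2 members were called (287 of all genes), 31 were higher and the median was 0.25. The count was 2 without rapamycin Atg7+/- replicate 1, 3 without its replicate 4, 4 without rapamycin Atg7-/- replicate 4 and 13 without its replicate 2. It was 4 without untreated Atg7+/- replicate 1 or 3 or untreated Atg7-/- replicate 3, and 5 without untreated Atg7-/- replicate 1 or 2. Over the main fit and all alternatives 20 to 886 of all genes were called. The summed log2 signal of neutrophil markers ran from 30.7 to 35.1 in rapamycin Atg7+/- and from 31.8 to 39.1 in rapamycin Atg7-/- arrays, with 0 of 7 tested called. Of the 8 Treg markers 1 was called lower in Atg7-/- cells, 4 had all arrays lower, and the median difference was -0.19, with summed signals of 83.7 to 84.4 in rapamycin Atg7+/- and 82.1 to 83.5 in rapamycin Atg7-/- arrays. Of 6 CD8 T and NK markers tested 1 was called higher, with summed signals over the list of 30.7 to 31.6 and 31.7 to 32.1. None of the dendritic, macrophage, B and erythroid markers was called. Of 19 cell cycle genes tested 0 were called and 15 were higher in Atg7-/- cells, with a median log2 difference of 0.16. Their mean level was 5.63 ± 0.0828 (SD, n = 4) in rapamycin Atg7+/- and 5.81 ± 0.213 in rapamycin Atg7-/- cells. The part of any list in the complex I values was not tested.

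**Figure D4:**
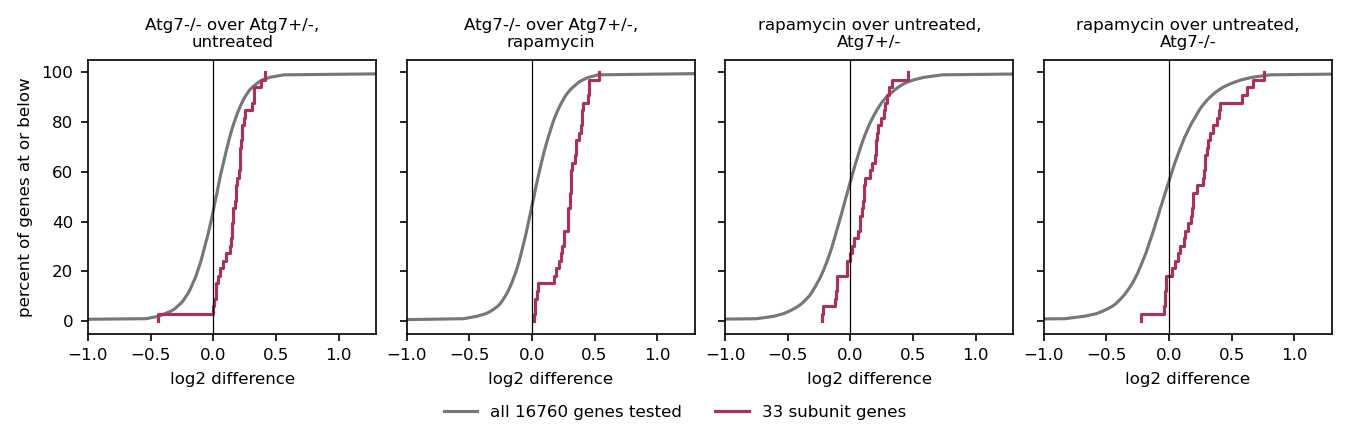
Percent of genes at or below each log2 difference (horizontal axis), for the 33 complex I genes and for all 16760 genes tested, in each of 4 comparisons. The step line of the complex I genes lies to the right of the line for all genes over most of its course in each panel, with medians of 0.18, 0.30, 0.11 and 0.19 from left to right.

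Whether rapamycin acted differently in the genotypes was tested as the difference of its effects, Atg7-/- minus Atg7+/-. In limma, 0 of 33 members were called and 0 of 16760 genes (0% of all genes). At an unadjusted p under 0.05 there were 3 members, against 6.28% of all genes. They were Ndufb11 with 0.48 (95% confidence interval 0.13 to 0.84, limma adjusted p = 0.655), Ndufb8 with 0.30 (0.024 to 0.57, adjusted p = 0.792) and Ndufa7 with 0.38 (0.0063 to 0.75, adjusted p = 0.792). The median over the members was 0.12 (all genes 0.0029) and 27 of 33 were above 0, against 50.7% of all genes. Without rapamycin Atg7-/- replicate 3 that median was 0.058 and without rapamycin Atg7+/- replicate 2 it was 0.064. So the larger number of calls in Atg7-/- cells was not shown to differ from that in Atg7+/- cells.

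Medians are given for the structural parts of the complex, and differences between the parts were not tested. Between genotypes under rapamycin the median log2 difference was 0.30 over 7 N module members, 0.34 over 7 of the Q module, 0.29 over 9 of the proximal arm and 0.33 over 8 of the distal arm. For rapamycin in Atg7-/- cells these medians were 0.12, 0.22, 0.28 and 0.23, with 3 members called in each part, and in Atg7+/- cells they were 0.11, 0.11, 0.16 and 0.067. Leaving out rapamycin Atg7-/- replicate 3, they were 0.24, 0.27, 0.25 and 0.26 between genotypes under rapamycin and 0.089, 0.12, 0.25 and 0.17 for rapamycin in Atg7-/- cells. Over the 6 core members measured here, 3 were called for rapamycin in Atg7-/- cells and 1 between genotypes under rapamycin. The shares of all genes called were 20% and 3.24%. Ndufa4 and Ndufa4l2 were not called, with differences of 0.19 and 0.026 between genotypes under rapamycin.

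The 19 members called nowhere included bright genes. Ndufa12, Ndufa13 and Ndufa10, accessory subunits, and Ndufa9, an accessory subunit that binds a nucleotide near the ubiquinone site, each had higher means in Atg7-/- cells with and without rapamycin. Ndufa11, of the membrane arm, averaged 9.73, 9.72 and 9.72 in untreated Atg7+/-, untreated Atg7-/- and rapamycin Atg7+/- cells and 10.03 in rapamycin Atg7-/- cells (rapamycin difference in Atg7-/- cells 0.31, limma adjusted p = 0.0671). Its dimmer probe set gave 6.44, 6.22, 6.45 and 6.83 in the same order.

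Subunits encoded by mitochondrial DNA gave other values. Of 7 (ND1 to ND6 with ND4L), 0 were called in any comparison, and the median differences were -0.12 for the untreated genotypes, -0.037 for rapamycin in Atg7+/- cells, 0.12 for rapamycin in Atg7-/- cells and 0.020 for the genotypes under rapamycin. With that replicate 3 of rapamycin Atg7-/- left out the medians were 0.13 for rapamycin in Atg7-/- cells and 0.0017 for the genotypes under rapamycin. Between untreated genotypes all 7 differences were below 0, from -0.18 to -0.10. For rapamycin in Atg7-/- cells all 7 were above 0, from 0.041 to 0.21. Above 0 were 1 for rapamycin in Atg7+/- cells and 4 for the genotypes under rapamycin. Ndufab1, the mitochondrial acyl carrier protein that is also part of complex I, averaged 6.49, 6.52, 6.5 and 6.48 in untreated Atg7+/-, untreated Atg7-/-, rapamycin Atg7+/- and rapamycin Atg7-/- cells.

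Assembly factors build the complex and are not part of it. Of 18 tested, 5 were called higher in untreated Atg7-/- than in untreated Atg7+/- cells, against 1.75% of all genes, with a median of 0.22. The 4 with the smallest p were Ndufaf6 (0.45), Ndufaf4 (0.39), Ndufaf7 (0.50) and Ecsit (0.46). For rapamycin in Atg7-/- cells, Nubpl, which delivers iron-sulfur clusters to complex I, rose by 0.85 (limma adjusted p = 9.51e-05). Its mean went from 3.96 in untreated Atg7-/- cells, near background, to 4.81 in rapamycin Atg7-/- cells. The Nubpl difference was not recomputed in the alternatives. Ndufaf8 rose by 0.56, while Ndufaf5 fell by 0.50 and Ndufaf7, a methyltransferase acting on a complex I subunit, fell by 0.56. There 4 factors were called higher and 3 lower, against 8.83% and 11.1% of all genes. In Atg7+/- cells 2 were called higher and 1 lower, against 6.03% and 8.11% of all genes. Between genotypes under rapamycin 1 was called, Ndufaf8 (0.49), against 3.24% of all genes. The median there was 0.26 (0.23 without rapamycin Atg7-/- replicate 3).

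Subunits of complexes II to V, 37 genes, had medians of 0.13 between untreated genotypes, -0.043 for rapamycin in Atg7+/- cells, 0.065 for rapamycin in Atg7-/- cells and 0.25 between genotypes under rapamycin. Without rapamycin Atg7-/- replicate 3 the medians were 0.0040 for rapamycin in Atg7-/- cells and 0.20 between genotypes under rapamycin. They were called in 1, 5, 5 and 2 cases, against 3.14%, 14.1%, 20% and 3.24% of all genes in the same order. Of these cases 2 were lower, both for rapamycin in Atg7+/- cells. Between genotypes under rapamycin 35 of the 37 were higher in Atg7-/- cells, against 53.6% of all genes. Arrays did not overlap for 17, all higher, against 6.01% of all genes higher. An unadjusted limma p under 0.05 was found for 24, against 18.3% of all genes. A difference between these subunits and those of complex I was not tested. Of 13 regulators of mitochondrial genes, 0 were called between genotypes with or without rapamycin. For rapamycin in Atg7+/- cells 2 were called higher and 1 lower, against 6.03% and 8.11% of all genes. In Atg7-/- cells 3 were called higher and 2 lower, against 8.83% and 11.1%. Rapamycin raised Tfb1m, which methylates mitochondrial ribosomal RNA, by 0.83 in Atg7+/- and 0.82 in Atg7-/- cells, and Tfb2m, a mitochondrial transcription factor, by 0.66 and 0.71. Ppargc1b, a coactivator of respiratory genes, fell by 0.52 and 0.63, and in Atg7-/- cells Tfam, which packages and transcribes mitochondrial DNA, rose by 0.40.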

How the data were processed

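The 16 arrays gave 1 log2 value per probe set and array, as deposited by the authors. RMA and Partek 6.6 stand in the submitters' processing notes, without order or settings, and the build is not given in the sources used here. The log base was taken as 2, which RMA uses. The file does not state it, and every fold rests on it. Of 41345 probe sets, 23521 had 1 symbol in GEO's platform annotation, 1814 had several and 16010 were unlisted. The first stood for 22180 genes. Probe sets with several symbols, 6 of them with a symbol of the complex I pattern, were not used, and near-identical genes and pseudogenes may share probes. The set shared by Ndufs5 and Ndufs5-ps was brighter than the Ndufs5 set used. Its means were 6.82 in untreated Atg7+/-, 6.79 in untreated Atg7-/-, 7.19 in rapamycin Atg7+/- and 7.42 in rapamycin Atg7-/- cells.

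Genes whose highest group mean exceeded 3.55, the 30th percentile of all values, were tested (16760). limma 3.58.1 in R 4.3.3 fitted 1 mean per group to all 16 arrays (lmFit, eBayes, 12 residual and 5.64 prior degrees of freedom). Tests were two-sided, with Benjamini-Hochberg adjustment over all genes tested within each comparison, and called genes had an adjusted p under 0.05. The steps were tested on simulated data. Values of every array were given for the members called, the 3 with the smallest p where fewer were called, and the core subunits. Other members were named outside this rule. Of other lists up to 4 called genes were named by smallest p. Complex I members and all lists were chosen with earlier results of these data known. Alternatives were the filter, normalization, probe set choice, variance model, array weights, the groups fitted, a replicate block and leaving out each array, 25 in all. The number of arrays limits the precision.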

Additional observations from a re-analysis of the deposited data

Results flagged for a closer look

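In 10 of 132 combinations of a complex I gene and a group of 4 arrays, 1 array lay far from the other 3 by Dixon's criterion, which chance meets in about 1 in 20. Untreated Atg7+/- replicate 4 was low for Ndufa13 (9.28, others 9.52 to 9.55), Ndufc2 (9.18, others 9.36 to 9.38) and Ndufv3, an N module accessory subunit (6.6, others 6.96 to 7.0). Rapamycin Atg7-/- replicate 3 was high for Ndufb3 (7.86, others 7.35 to 7.41) and Ndufv2 (9.25, others 9.0 to 9.04). In the untreated Atg7-/- group, replicate 3 was low for Ndufa4 (10.69, others 10.78 to 10.79), replicate 2 was low for Ndufb8 (7.79, others 7.95 to 7.97) and replicate 1 was high for Ndufs5 (4.56, others 4.4 to 4.41). In the rapamycin Atg7+/- group, replicate 3 was high for Ndufa4l2 (4.29, others 3.96 to 4.01) and replicate 2 was low for Ndufa5 (8.97, others 9.14 to 9.17).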

How the results depend on the processing

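The median log2 difference over the 33 complex I genes kept its sign in all 5 contrasts and in every alternative run, and none of the 29 gene differences recomputed in the alternatives (called members, some next in rank and 3 differences of the rapamycin effects) reversed. Other named genes were not recomputed. When each array was left out in turn the median ran from 0.14 to 0.20 between untreated genotypes, 0.068 to 0.14 and 0.15 to 0.22 for rapamycin in Atg7+/- and Atg7-/- cells, 0.25 to 0.33 between genotypes under rapamycin and 0.058 to 0.16 for the difference of the rapamycin effects. Counts of called complex I genes ran from 0 to 4, 0 to 2, 9 to 13, 0 to 13 and 0 to 0 in that order. Between untreated genotypes the count of 1 became 0 with no filter on dim genes, 3 with a stricter filter, 0 with median centring of each array, 5 with an intensity trend and robust eBayes and 3 with array weights. For rapamycin in Atg7+/- cells the count of 1 became 0 with median centring, 5 with the trend, 3 with array weights and 2 with only the 2 groups compared. For rapamycin in Atg7-/- cells 12 became 7 with only the 2 groups compared. Between genotypes under rapamycin 8 became 5 with no filter, 4 with median centring, 14 with the trend and 0 with only the 2 groups compared. With the replicate number as a block the counts were 1, 1, 11, 7 and 0. Deviations of same-numbered arrays correlated at -0.083 to 0.36, over 0.1 in 6 of 24 pairs. The labels do not say what the numbers mark, and the main fit did not take them as pairs. Between the 2 rapamycin groups the correlations were 0.24, 0.19, 0.36 and -0.066 for numbers 1 to 4, and those of unlike numbers ran from -0.30 to 0.19. Replicate 3 was the highest of its group for 21 members in rapamycin Atg7+/- and 26 in rapamycin Atg7-/- cells. The replicate block fits 1 effect per number over all 4 groups, so a pairing within the rapamycin groups alone was not modelled. Under that block Ndufb5 lost its call between genotypes under rapamycin, as did Ndufs7 for rapamycin in Atg7-/- cells. The fit on only the 2 groups compared has no counterpart for the difference of the rapamycin effects. Over all genes tested, called counts ran from 284 to 974, 1559 to 3428, 2247 to 3518, 20 to 886 and 0 to 1. The cause of these changes was not tested. With 4 arrays per group, signals near background, such as those of Ndufa4l2 and of the Ndufs5 probe set used, limit what can be seen.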
